A study of Danio rerio with 6 samples.

Results

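Dusp6 and Dusp2 are dual-specificity phosphatases that switch off the kinase ERK, and they form only a small branch of the protein tyrosine phosphatases. The genes described here are the other protein tyrosine phosphatases, chosen by gene name alone: every gene of the table whose name begins with *ptpn*, *ptpr*, *ptp4a*, *ptpmt*, *ptpla* or *ptplb*. The rule took 59 of the 23150 genes, and 53 of them had enough reads to enter the comparison of genotypes, which covered 20021 genes. RNA-seq of zebrafish at 18 hpf compared 3 libraries of *dusp2/dusp6* double mutant embryos with 3 libraries of wildtype embryos. The double mutants (*dusp2* um287/um287; *dusp6* um286/um286) came from parents homozygous for both alleles, each a deletion recovered from germ line CRISPR founders. The wildtype embryos were of the Ekkwill strain and carried both genes intact (*dusp2*+/+; *dusp6*+/+). Each library was made from a pool of whole embryos freed of chorion and yolk, so all tissues were measured together. The paper reports that many embryos of double mutant parents stall at the first cell division and die before segmentation. The mutant pools therefore held surviving embryos only. Parents homozygous for both deletions cannot give wildtype siblings, so the wildtype embryos had other parents. Survival, line and family background thus went with genotype, and their part in the differences was not tested.

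Protein tyrosine phosphatases remove phosphate from tyrosine residues and so oppose the tyrosine kinases. Receptor-type members (Ptpr) cross the plasma membrane and carry adhesion-like domains outside the cell, whereas non-receptor members (Ptpn) lie in the cytoplasm and are placed by domains such as SH2, FERM or PDZ. The small Prl phosphatases (Ptp4a) are anchored to membranes by a lipid. Some act directly on the pathway that Dusp6 restrains: in mammals Ptpn5 and Ptprr bind and dephosphorylate ERK, while Ptpn11, known as Shp2, passes the signal of growth factor receptors, including the FGF receptors, on to Ras and ERK.

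Some of the names mislead. *PTPLA*, *ptplb* and *ptplad1* are older names of *hacd1*, *hacd2* and *hacd3*, which encode dehydratases of fatty acid elongation and not phosphatases, so they are described apart and leave 56 phosphatase genes, 50 of them tested. The products of *ptprn* and *ptprn2* lack ordinary phosphatase activity in mammals, and that of *ptpmt1* acts on a mitochondrial lipid. Of the 59 names, 56 matched 1 gene each of the current zebrafish annotation (GRCz12tu). Here *PTPRU* and *ptprub* led to the same gene. Names were matched without regard to case, so *PTP4A3* and *ptp4a3* had to lead to 1 gene, as did *PTPRT* and *ptprt*. Whether the entries of each such pair are separate genes was not settled. How reads were divided within those pairs of table entries is uncertain, and counts were whole in all 6 libraries for only 16 of the 59 genes (within 0.005).

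The expected counts summed to between 37989443 and 44657980 in the mutant libraries and between 36310355 and 45161306 in the wildtype libraries. The deleted genes bore out the labels, since *dusp6* fell by 2.83 and *dusp2* fell by 3.19 on the log2 scale with no overlap between genotypes. Mutant library D stood apart: in a chi-square test of its counts, the statistic per degree of freedom was 12.7 and 15.4 against the other mutant libraries, where the remaining pairs within a genotype gave 3.62 to 5.56. No source states that the pools of a genotype came from separate clutches, so the p-values measure the spread between these libraries, which may be technical. Only the 56 names matched to 1 gene of GRCz12tu could be placed on its map, which leaves out *ptprda*, *ptprmb* and *ptprjb*. Of those placed, 4 share a chromosome with a deleted gene, *ptpn9a* and *ptprz1a* with *dusp6* and *ptpn1* and *ptpn18* with *dusp2*. None of the 4 lies nearer than 203 protein-coding genes.

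At an adjusted p under 0.05 (edgeR quasi-likelihood test, Benjamini-Hochberg over all genes tested) 23 of the 53 tested genes differed between the genotypes, or 43.4%, where the share of all genes tested was 34.5%. Of these, 12 were higher in mutants (22.6%, against 17.4% of all genes) and 11 were lower (20.8%, against 17.1%). The differences were small. The rises lay between 0.12 and 0.72 and the falls between -1.14 and -0.14 on the log2 scale, and only *ptpn18* also passed a 2-fold change, or 1.89% of the tested genes, where 4.95% of all genes did. Mutant libraries all lay outside the wildtype range for 27 genes, or 50.9%, where the share of all genes was 49.1%. The median log2 fold change over the 53 genes was -0.02 (0.01 without wildtype replicate C), against -0.0007 over all genes, and its median size was 0.18, against 0.21.

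The share that passed moved with abundance, as it did in the whole table. All tested genes were put into 5 bins of equal size by mean CPM, the counts of a gene scaled to the library total after TMM correction. In the most abundant bin, with a median of 96.7 CPM, 12 of 18 of these genes passed, where 46.9% of all genes in that bin did. In the least abundant bin, at a median of 0.562 CPM, 1 of 4 passed, where 18.4% of all genes there did. The bins between, from low to high, gave 3 of 11, 3 of 10 and 4 of 10. The shares of all genes there were 28.4%, 37% and 41.6%, so these genes did not pass more often in every bin. Of the 23 genes, 16 kept an adjusted p under 0.05 in each of the 6 fits that left out 1 library. The other 7 were *ptp4a2a*, *ptpn4a*, *ptpn11a*, *ptpn18*, *ptpro*, *ptprua* and *ptprz1a*.

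By structural class the picture was one of mixed directions. The genes fall into 18 classes, and 6 of these held at least 1 rise together with at least 1 fall: the MAM-domain, the alpha and epsilon and the carbonic anhydrase-like receptors, the FERM-domain and Prl phosphatases, and the dehydratases. In 4 classes the genes that passed were all higher in mutants, but they were few. There were 2 each among the LAR-type and the fibronectin-repeat receptors, and 1 each in the PTP1B type and the SH2-domain phosphatases. In 2 classes they were all lower, the secretory granule receptors with 3 genes and the PEST type with 1. That gene, *ptpn18*, and the SH2-domain gene, *ptpn11a*, were among the calls lost when 1 library was left out. The receptor-type genes gave 7 rises and 6 falls among 25 tested, and the remaining phosphatases gave 4 rises and 4 falls among 25. For comparison, 17.4% of all genes tested rose and 17.1% fell. Whether the groups or classes differ from each other or from all genes was not tested. The 30 tested genes that did not pass had log2 fold changes between -0.61 and 0.49. Each tested gene of the MEG2 type (*ptpn9a*, *ptpn9b*) and of the His domain type (*ptpn23a*, *ptpn23b*) was among them, as were *ptpmt1* (-0.01, interval -0.244 to 0.223) and both duplicates of *ptpn2*, which in mammals restrains Jak kinases (-0.12 for *ptpn2a* and -0.08 for *ptpn2b*).

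**Figure D1:**
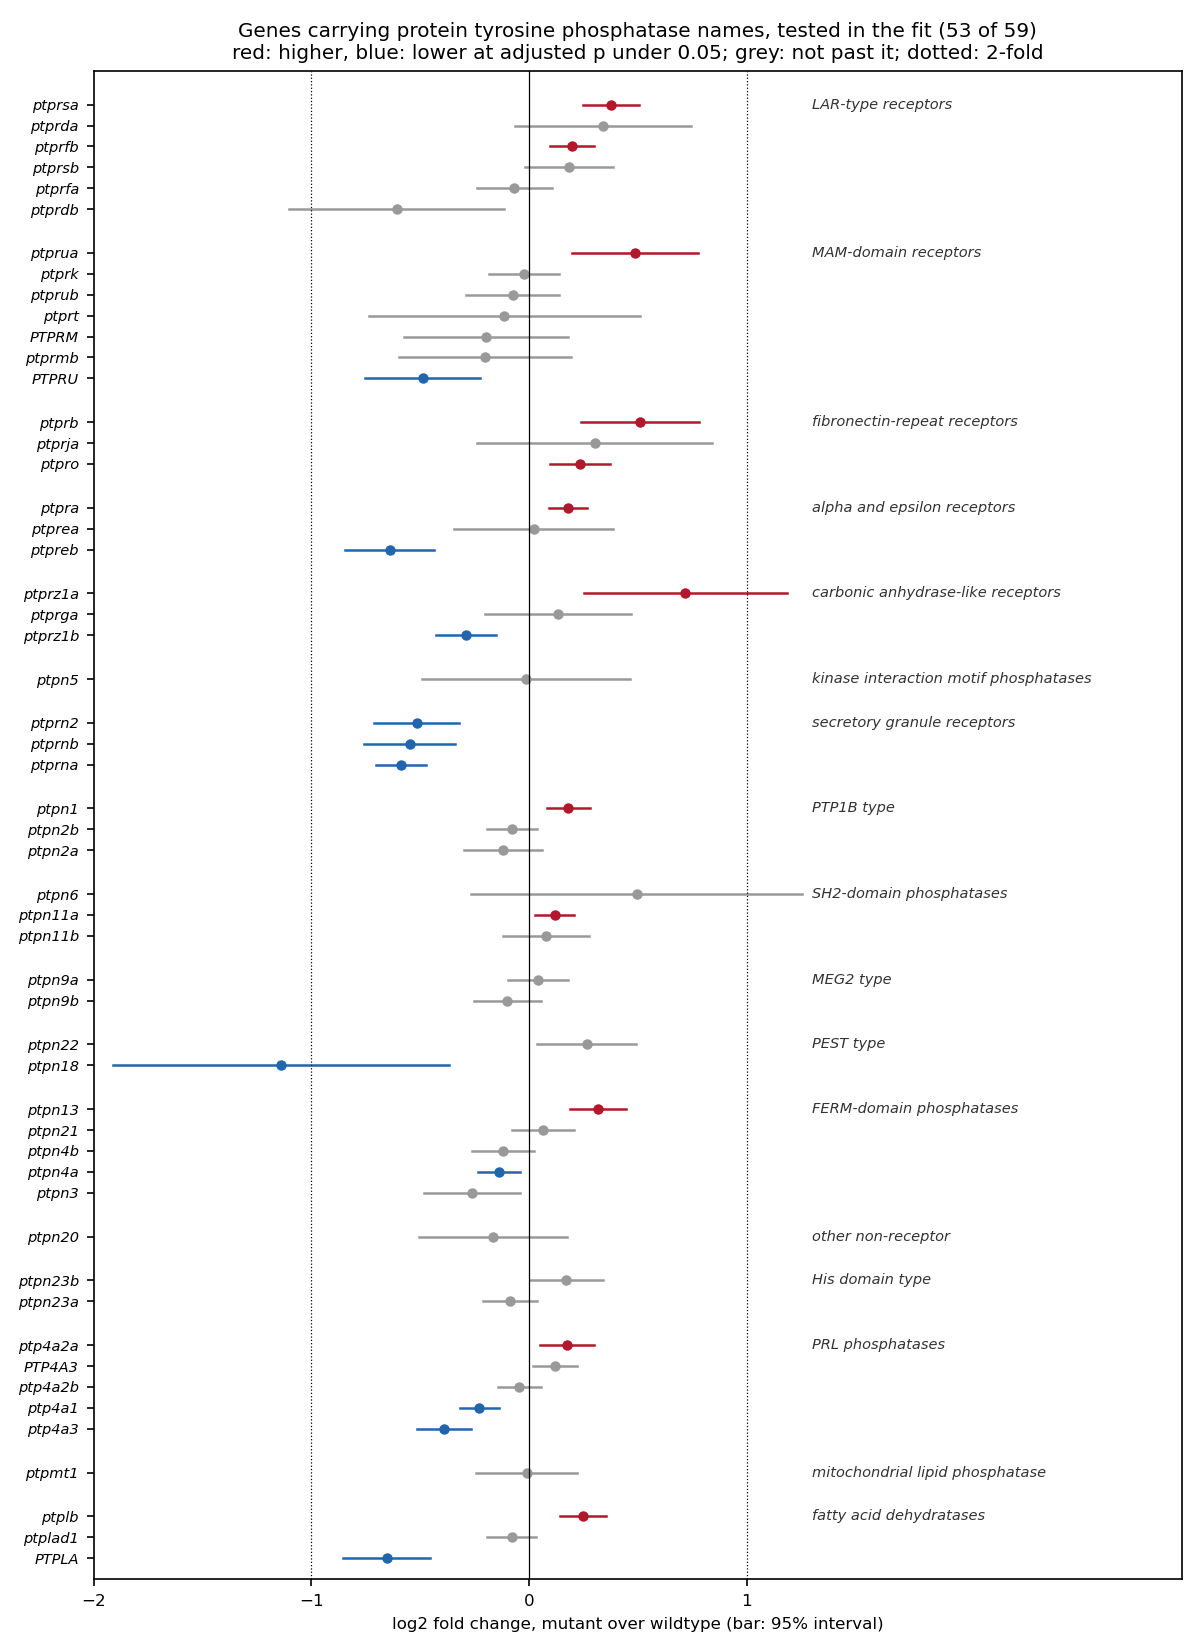
Log2 fold change of mutant over wildtype (horizontal axis) for the 53 tested genes, grouped by structural class, with 95% intervals from the edgeR fit; red and blue mark genes that rose or fell at an adjusted p under 0.05, and dotted lines mark a 2-fold change. Estimates run from -1.14 (*ptpn18*) to 0.72 (*ptprz1a*), and the 3 secretory granule receptors are the only class of more than 2 genes in which each tested gene fell.

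Of the phosphatases that act on ERK or between FGF receptors and ERK, *ptpn11a* alone passed the test, by a small margin. *ptpn11a*, the Shp2 gene known to be needed in zebrafish development, had 122.6, 122.1 and 124.6 CPM in mutant libraries A, C and D, against 117.1, 112.7 and 110.5 CPM in wildtype libraries A, B and C. All mutant libraries lay above all wildtype libraries, and the gene rose by a log2 fold change of 0.12 (SE 0.0417, 95% interval 0.026 to 0.209, adjusted p = 0.047). This call was the most fragile of the 23. It held in 4 of 13 alternative analyses and was lost without wildtype replicate B (0.11, adjusted p = 0.12), without wildtype replicate C (0.10, adjusted p = 0.19) and without each mutant library (0.10 to 0.12, adjusted p from 0.07 to 0.092). Its duplicate *ptpn11b* had 8.27, 8.05 and 8.89 CPM in mutant libraries and 8.26, 7.39 and 8.16 CPM in wildtype libraries. These ranges overlapped, and the log2 fold change of 0.08 had an interval from -0.118 to 0.278.

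*ptpn6* encodes Shp1, which in mammals restrains signalling in blood cells. It was sparse, with 18, 32 and 31 reads in mutant libraries and 19, 12 and 26 reads in wildtype libraries, and at this depth its log2 fold change of 0.49 (interval -0.265 to 1.25, adjusted p = 0.29) was not distinguishable from 0. *ptpn5*, whose mammalian product STEP dephosphorylates ERK in neurons, had 58.0, 54.2 and 49 reads in mutant libraries and 59, 38.3 and 63.3 reads in wildtype libraries. The genotypes overlapped, and the log2 fold change was -0.01 with an interval from -0.491 to 0.464. *PTPRR*, the other gene of this type found here, was too low for the test, with 7, 6 and 5 reads in mutant libraries and 0, 5 and 2 in wildtype libraries. The mean was 0.146 CPM in mutants and 0.0590 CPM in wildtypes, and mutant library D and wildtype library B had the same 5 reads. Of the genes known to work with Shp2, 16 were tested, namely adaptors, exchange factors, *cbl* and *cblb*. Among them 4 rose and 2 fell, where 17.4% of all genes rose and 17.1% fell. The list median log2 fold change was 0.04. The rises were in *frs2b* (0.28), which docks to FGF receptors, *sos2* (0.26), *shc1* (0.26) and *grb2b* (0.18), and the falls in *gab2* (-0.70) and *cblb* (-0.31).

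**Figure D2:**
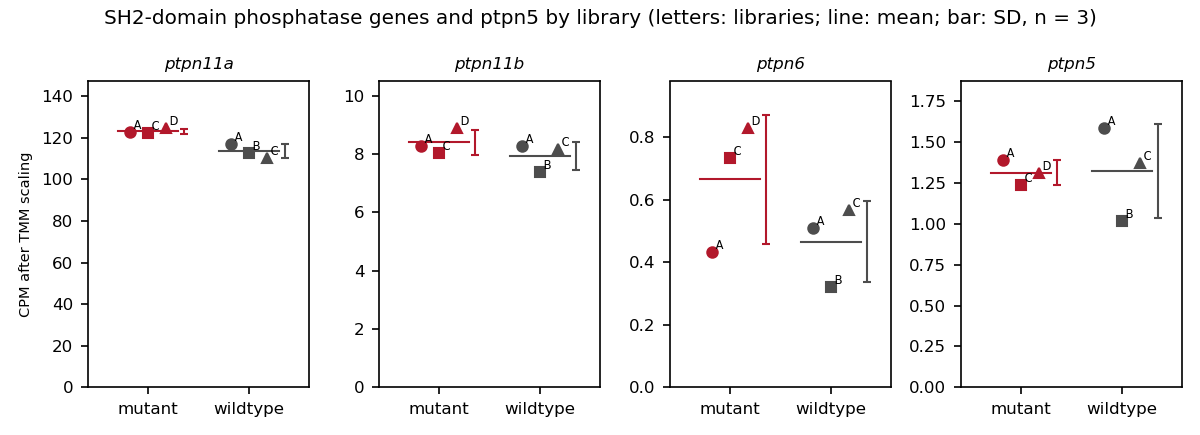
CPM after TMM scaling (vertical axis, from 0) of the SH2-domain phosphatase genes and *ptpn5*, 1 point per library, with mutant left of wildtype, a line at the mean and a bar for the SD (n = 3). *ptpn11a* is the only panel in which the genotypes do not overlap, at 122.1 to 124.6 CPM in mutants and 110.5 to 117.1 CPM in wildtypes.

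The secretory granule receptors, *ptprna*, *ptprnb* and *ptprn2*, were all lower in mutants, each by about the same amount. In mammals their products (IA-2 and phogrin) sit in the membrane of the dense-core granules from which neuroendocrine cells release hormones and peptides. *ptprna* had 39.1, 39.4 and 36.1 CPM in mutant libraries A, C and D, against 55.8, 57.2 and 59.2 CPM in wildtype libraries A, B and C, that is 38.2 ± 1.83 against 57.4 ± 1.71 CPM (SD, n = 3 each). It fell by 0.59 on the log2 scale (SE 0.0526, adjusted p = 1.6e-05), the lowest p of all 53 genes. *ptprnb* had 14.5, 13.0 and 11.1 CPM in mutants and 20.1, 17.8 and 18.6 CPM in wildtypes, a log2 fold change of -0.55 (SE 0.0957, adjusted p = 0.0013).

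*ptprn2* had 26.8, 23.7 and 20.3 CPM in mutants and 32.0, 35.5 and 33.9 CPM in wildtypes, a log2 fold change of -0.52 (SE 0.0889, adjusted p = 0.0012). In none of the 3 genes did any mutant library reach the lowest wildtype library, and mutant library D was the lowest in each. All 3 kept an adjusted p under 0.05 in every fit that left out 1 library, with log2 fold changes between -0.64 and -0.42. *ptprna* took 73.0%, 75.1% and 76.5% of the counts of its duplicated pair in mutants and 73.5%, 76.3% and 76.1% in wildtypes, so that *ptprna* and *ptprnb* kept overlapping shares of their sum. In RNA from whole embryos, fewer cells of a type and less RNA per cell cannot be told apart. Of 7 other markers of secretory neuroendocrine cells, 6 were tested, *insm1b* rose (0.20), *insm1a* fell (-0.24), and the median log2 fold change was -0.19. Their summed level was 105 to 110 CPM in mutants and 109 to 113 CPM in wildtypes. Of 9 neuron markers 8 were tested, *isl1* rose (0.21) and *snap25a* fell (-0.29), with a sum of 291 to 303 CPM in mutants and 303 to 314 CPM in wildtypes. Most of that sum was *elavl3*, which did not pass (-0.06, adjusted p = 0.32). Without it the sum was 104 to 110 CPM in mutants and 108 to 116 CPM in wildtypes, which overlapped. Beside these lists, 17.4% of all genes tested rose and 17.1% fell. No marker of either list was at 0 in any library, and the part of these cells in the result was not tested.

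The alpha and epsilon receptors went in opposite directions. Ptpra is known in mammals for removing the inhibitory phosphate of Src family kinases, and Ptpre is its closest relative, with a similarly short part outside the cell. *ptpreb* had 17.9, 17.4 and 13.5 CPM in mutants and 25.0, 24.8 and 26.4 CPM in wildtypes, and fell by 0.64 on the log2 scale (SE 0.0937, adjusted p = 4.3e-04). *ptpra* had 141, 137 and 135 CPM in mutants and 121, 122 and 122 CPM in wildtypes, and rose by 0.18 (SE 0.04, adjusted p = 0.0053). Neither gene overlapped between genotypes, and both calls held without any 1 library. The other epsilon gene, *ptprea*, had 2.64, 3.39 and 3.90 CPM in mutants and 2.95, 3.10 and 3.68 CPM in wildtypes. Its genotypes overlapped, and its log2 fold change was 0.02 with an interval from -0.342 to 0.384. Among 21 cytoplasmic tyrosine kinases tested, *src* (-0.41), *fyna* (-0.30) and *zap70* (-2.73) fell and *abl1* (0.23) and *jak2b* (0.20) rose, with a list median of 0.12. Over all genes tested, 17.1% fell and 17.4% rose. *zap70* was sparse, with 5, 3 and 5 reads in mutant libraries and 27, 28 and 32 reads in wildtype libraries. Its wildtype libraries brought it past the filter on low counts, so its entry into the test depended on the group where it was higher.

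Among the LAR-type receptors, which in vertebrates and flies guide axons and organise synapses, the genes that passed were higher in mutants. *ptprsa* had 98.6, 93.4 and 105 CPM in mutants and 78.2, 70.5 and 79.7 CPM in wildtypes, a log2 fold change of 0.38 (SE 0.0586, adjusted p = 6.4e-04). *ptprfb* had 236, 238 and 254 CPM in mutants and 206, 209 and 219 CPM in wildtypes, a log2 fold change of 0.20 (SE 0.0457, adjusted p = 0.0065). For both genes the lowest mutant library was above the highest wildtype library. Their duplicates did not pass. *ptprsb* had 12.8, 14.2 and 12.7 CPM in mutants and 12.5, 10.3 and 12.1 CPM in wildtypes (log2 fold change 0.18, interval -0.016 to 0.384, adjusted p = 0.14). *ptprfa* had 35.3, 39.5 and 44.8 CPM in mutants and 40.4, 40.6 and 44.1 CPM in wildtypes (-0.07, interval -0.240 to 0.105, adjusted p = 0.54). Both intervals include 0, and that of *ptprfa* reaches further down than up. The delta receptor genes, *ptprda* and *ptprdb*, had log2 fold changes of 0.34 (adjusted p = 0.18) and -0.61 (adjusted p = 0.057). The fall of *ptprdb* was the largest change of the class, without overlap, at 0.94 to 1.44 CPM in mutants and 1.52 to 2.12 CPM in wildtypes. It passed under the filter of CPM over 1 and without mutant replicate D, and in no other alternative.

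The carbonic anhydrase-like receptors gave another split pair. Ptprz1 is, in mammals, a chondroitin sulfate proteoglycan of glia and neural progenitors that binds the growth factor pleiotrophin. *ptprz1a* had 1.87, 1.47 and 1.47 CPM in mutants and 0.886, 0.907 and 1.11 CPM in wildtypes, a log2 fold change of 0.72 (SE 0.213, adjusted p = 0.023). *ptprz1b* had 23.2, 24.6 and 21.9 CPM in mutants and 28.1, 27.6 and 29.4 CPM in wildtypes, a log2 fold change of -0.29 (SE 0.0627, adjusted p = 0.0047). Thus *ptprz1a* lay above and *ptprz1b* below the wildtype range in each mutant library. The fall of *ptprz1b* held without any 1 library. The rise of *ptprz1a*, which rests on 55 to 78 reads in mutant libraries and 33 to 51 in wildtype libraries, missed the threshold without wildtype replicate A (0.66, adjusted p = 0.076), wildtype replicate B (0.67, adjusted p = 0.069) or mutant replicate A (0.59, adjusted p = 0.085). *ptprga*, the gamma receptor of this class, had a log2 fold change of 0.13 with an interval from -0.203 to 0.471.

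**Figure D3:**
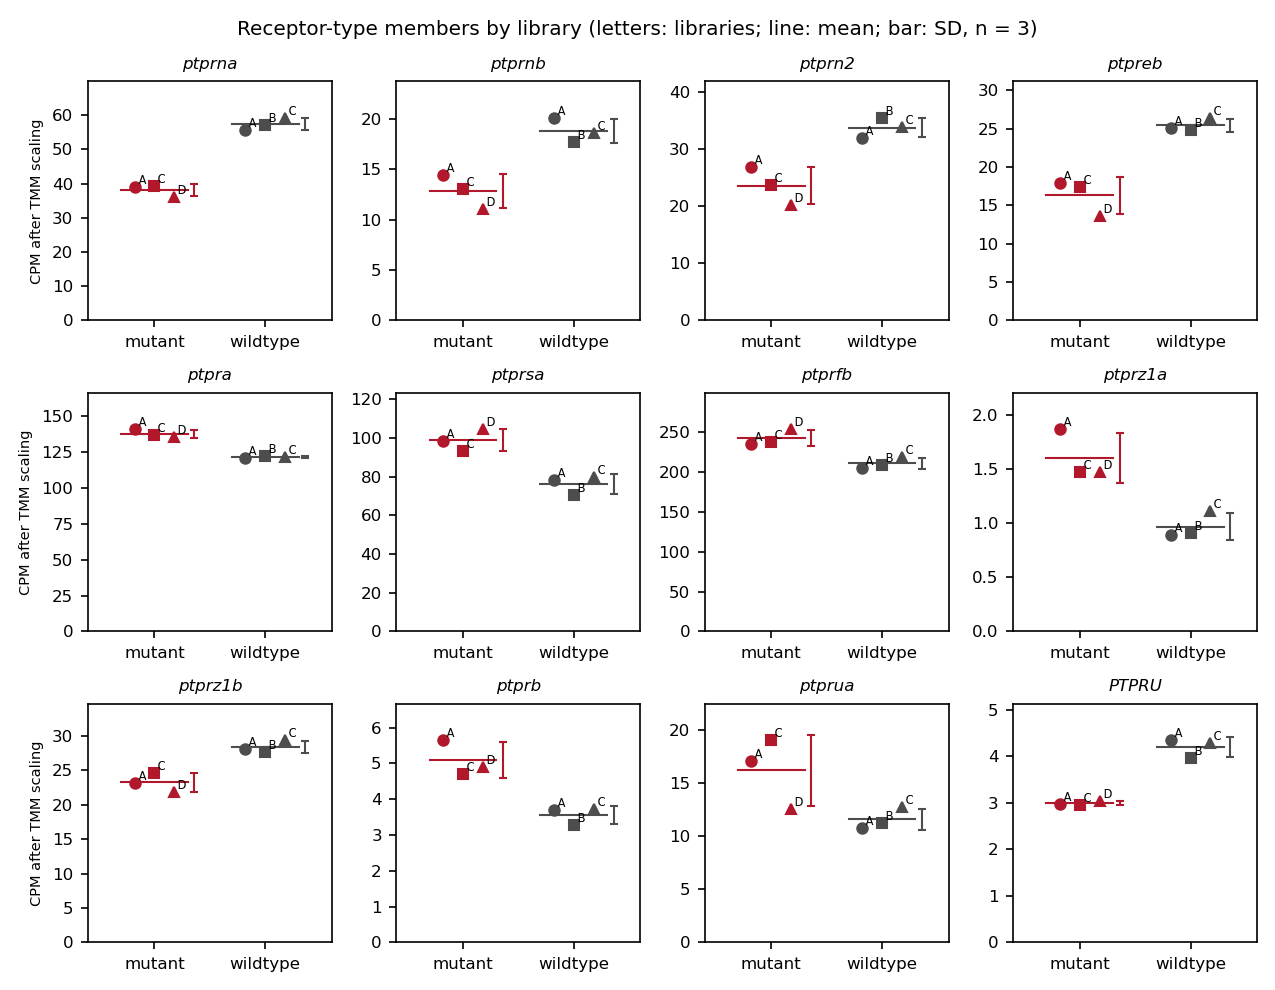
CPM after TMM scaling (vertical axes, from 0) of 12 receptor-type genes, 1 point per library, with mutant left of wildtype, a line at the mean and a bar for the SD (n = 3). Genotypes overlap only for *ptprua*, where mutant library D (12.6 CPM) lies within the wildtype range of 10.8 to 12.7 CPM.

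The fibronectin-repeat receptors with 1 catalytic domain that passed were higher in mutants. *ptprb*, whose mammalian product VE-PTP acts on the endothelial receptor Tie2 and on VE-cadherin, had 5.66, 4.70 and 4.91 CPM in mutants and 3.70, 3.28 and 3.72 CPM in wildtypes. The ranges did not overlap, and the log2 fold change was 0.51 (SE 0.124, adjusted p = 0.0084). None of 9 endothelial markers passed the same test, where 34.5% of all genes did. Their summed level was 128 to 148 CPM in mutants and 139 to 145 CPM in wildtypes. *ptpro*, which encodes a phosphatase known in mammals from kidney podocytes and from neurons, had 199, 182 and 173 CPM in mutants and 143, 162 and 165 CPM in wildtypes. It too had no overlap and rose by 0.23 (SE 0.0636, adjusted p = 0.015), but not without wildtype replicate A (0.17, adjusted p = 0.067) or mutant replicate A (0.18, adjusted p = 0.055). Of 4 podocyte markers tested, *podxl* fell (-0.18), and the summed level of the 5 listed was 60.1 to 65.5 CPM in mutants and 67.2 to 72.2 CPM in wildtypes. Nearly all of that was *podxl* itself: without it the sum was 5 to 5.27 CPM in mutants and 4.88 to 5.85 CPM in wildtypes, which overlapped.

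The MAM-domain receptors, several of which bind their own kind on the neighbouring cell, held 1 rise and 1 fall, both in genes named for Ptpru. *ptprua* had 17.1, 19.1 and 12.6 CPM in mutants and 10.8, 11.3 and 12.7 CPM in wildtypes, a log2 fold change of 0.49 (SE 0.132, adjusted p = 0.015). Mutant library D alone fell within the wildtype range, and *ptprua* was the only gene of the 23 whose genotypes overlapped. The call was lost without wildtype replicate A (0.44, adjusted p = 0.072), wildtype replicate B (0.46, adjusted p = 0.059) or mutant replicate C (0.35, adjusted p = 0.068). *PTPRU* had 2.97, 2.96 and 3.04 CPM in mutants and 4.35, 3.95 and 4.29 CPM in wildtypes, a log2 fold change of -0.49 (SE 0.12, adjusted p = 0.0092) that held without any 1 library. *ptprub*, which leads to the same current gene, had 6.71, 6.95 and 6.04 CPM in mutants and 6.92, 6.67 and 7.16 CPM in wildtypes (log2 fold change -0.08, adjusted p = 0.58). Since reads of *PTPRU* and *ptprub* may have been divided between copies of 1 gene, their sum was also taken. It was 9.56 ± 0.426 CPM in mutants and 11.1 ± 0.434 CPM in wildtypes (SD, n = 3 each), without overlap. The other 4 tested genes of the class (*ptprk*, *PTPRM*, *ptprmb*, *ptprt*) had log2 fold changes from -0.20 to -0.02.

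Among the non-receptor genes, *ptpn13* and *ptpn1* were higher in mutants. *ptpn13*, which encodes a very large FERM and PDZ protein, had 107, 108 and 125 CPM in mutants and 92.3, 90.1 and 90.9 CPM in wildtypes. Its log2 fold change was 0.32 (SE 0.0592, adjusted p = 0.002), with mutant library D the highest. *ptpn1*, the gene of PTP1B, which dephosphorylates the insulin and leptin receptors from the endoplasmic reticulum in mammals, had 111, 115 and 107 CPM in mutants and 95.5, 99.5 and 98.8 CPM in wildtypes. It rose by 0.18 (SE 0.0446, adjusted p = 0.0093), and neither of these genes overlapped between genotypes or lost its call without any 1 library. *ptpn4a*, another FERM and PDZ gene, was lower at 51.4, 52.3 and 50.8 CPM in mutants and 56.7, 57.6 and 55.8 CPM in wildtypes (-0.14, SE 0.0445, adjusted p = 0.032). Its groups did not overlap, yet it passed in only 1 of the fits that left out 1 library, that without mutant replicate D, with adjusted p from 0.062 to 0.095 in the others.

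*ptpn18*, a gene of the PEST type, had the largest fold of the 53 genes and few reads. There were 7, 10 and 11 reads in mutant libraries, against 21, 19 and 21 reads in wildtype libraries. Its wildtype libraries brought it past the filter on low counts, so that its entry into the test depended on the group where it was higher, and it was not tested under the filter of CPM over 1. The ranges did not overlap, and the log2 fold change was -1.14 (SE 0.351, interval -1.91 to -0.369, adjusted p = 0.027), a level of 0.454 of the wildtype. The gene passed only with all libraries or without mutant replicate D: adjusted p was 0.061 to 0.097 without any other library, and 0.10 with DESeq2's Wald test. Of its class, *ptpn22*, known from leukocytes in mammals, had 7.50, 8.30 and 9.43 CPM in mutants and 6.63, 6.97 and 7.33 CPM in wildtypes, without overlap but with adjusted p = 0.069. Among 30 receptor tyrosine kinases tested, *erbb2* (0.34), *erbb3a* (0.38), *met* (0.50) and *ptk7a* (0.26) rose and *igf1rb* (-0.25), *erbb3b* (-0.38) and *musk* (-0.52) fell, with a median of -0.02. The shares over all genes tested were 17.4% for rises and 17.1% for falls. FGF receptors and Eph receptors were not on this list of kinases.

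The Prl phosphatases, small enzymes that in mammals bind magnesium transporters of the CNNM family, gave 1 rise and 2 falls among 5 entries. *ptp4a3* had 37.0, 35.2 and 34.3 CPM in mutants and 49.1, 46.2 and 44.2 CPM in wildtypes, and fell by 0.39 on the log2 scale (SE 0.0565, adjusted p = 4.1e-04). *PTP4A3*, the same name in capitals, had 152, 138 and 143 CPM in mutants and 131, 135 and 132 CPM in wildtypes (log2 fold change 0.12, adjusted p = 0.059). The pair therefore lay on opposite sides of wildtype, without overlap in either entry. Their sum did overlap, at 179.7 ± 7.98 CPM in mutants and 179.1 ± 2.93 CPM in wildtypes (SD, n = 3 each). That sum describes a whole gene only if both entries belong to 1 gene, which was not settled. Whether reads moved between the entries or between transcripts was not tested. *ptp4a1* was lower, with 177, 169 and 165 CPM in mutants and 200, 200 and 199 CPM in wildtypes (-0.23, SE 0.0415, adjusted p = 0.0017), and held without any 1 library. *ptp4a2a* was higher, with 78.3, 79.6 and 71.4 CPM in mutants and 63.8, 70.5 and 68.9 CPM in wildtypes (0.17, SE 0.0562, adjusted p = 0.032). It was lost without replicate A or C of either genotype (0.13 to 0.18, adjusted p from 0.077 to 0.14), and its duplicate *ptp4a2b* had a log2 fold change of -0.04.

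The 3 dehydratase genes also divided. Their enzymes remove water from the growing acyl chain in each round of very long chain fatty acid synthesis, and *hacd1* is known in mammals for its part in muscle. *PTPLA* (*hacd1*) had 11.8, 11.8 and 9.51 CPM in mutants and 16.7, 18.3 and 17.2 CPM in wildtypes, and fell by 0.65 on the log2 scale (SE 0.0911, adjusted p = 3.2e-04). *ptplb* (*hacd2*) had 71.0, 69.4 and 75.8 CPM in mutants and 61.9, 60.7 and 59.4 CPM in wildtypes, and rose by 0.25 (SE 0.0483, adjusted p = 0.0025). Both held without any 1 library and neither overlapped between genotypes, whereas *ptplad1* (*hacd3*) overlapped and had a log2 fold change of -0.08 (adjusted p = 0.26). Of 16 other genes of fatty acid elongation tested, 2 rose and 4 fell, where 17.4% of all genes rose and 17.1% fell. The list median was -0.09. *elovl1b* (0.51) and *zgc:112263*, a synonym of *elovl8b* (1.25), rose, and *elovl4b* (-0.89), *elovl6* (-0.33), *elovl7b* (-0.30) and *hsd17b12b* (-0.27) fell.

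**Figure D4:**
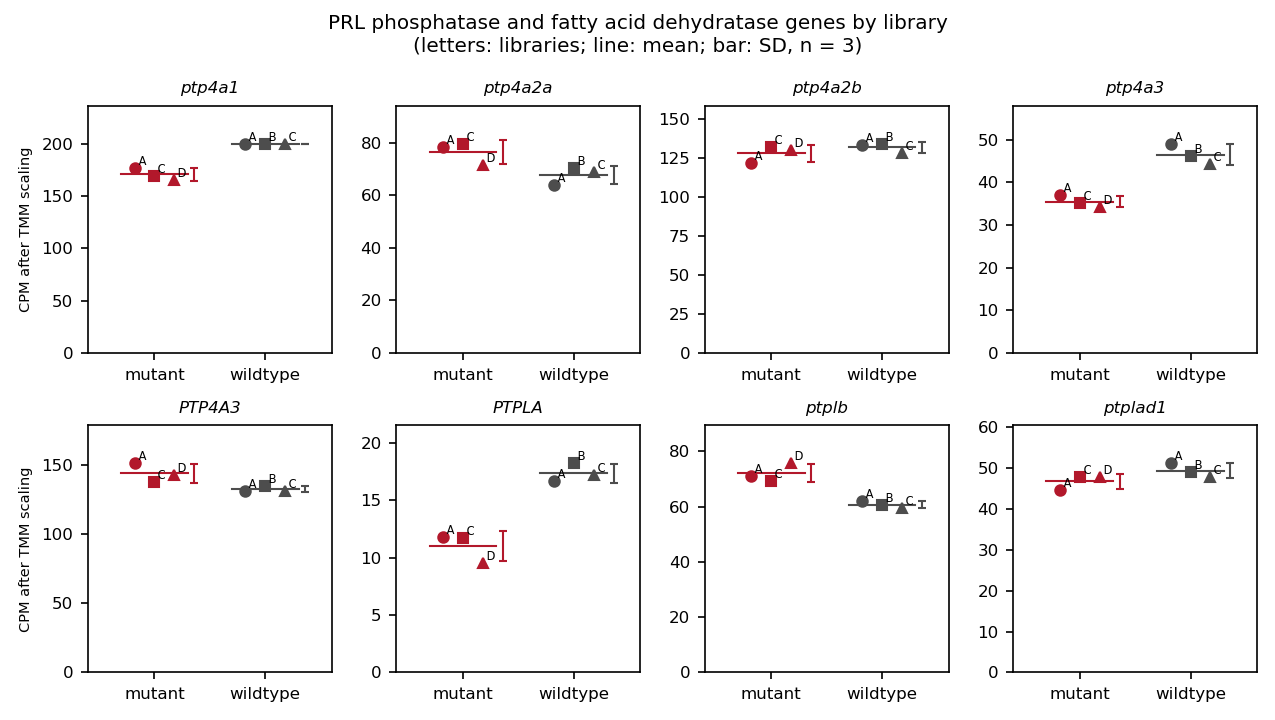
CPM after TMM scaling (vertical axes, from 0) of the 5 Prl phosphatase entries and the 3 fatty acid dehydratase genes, 1 point per library, with mutant left of wildtype, a line at the mean and a bar for the SD (n = 3). *ptp4a3* (34.3 to 37.0 CPM in mutants, 44.2 to 49.1 CPM in wildtypes) and *PTP4A3* lie on opposite sides of wildtype, as do *PTPLA* and *ptplb*.

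Zebrafish keep many of these genes as duplicates, and the share of a pair's counts taken by its first gene gives a view within each library that needs no scaling between libraries. Gene length was not corrected for, so only the change of a share is of use. Of 14 pairs, the shares did not overlap between genotypes in 8, with the first gene higher in 6 and lower in 2. The 8 include *ptprja* with *ptprjb*, where *ptprjb* was too low to test, at 0, 0 and 1 reads in mutant libraries and 6, 4 and 8 reads in wildtype libraries. The only share at hand for comparison is that of all tested genes without overlap in their CPM, 49.1%. It is for single genes and not for shares of pairs, so the count of 8 is not taken to set these pairs apart. With 3 libraries against 3 an exact permutation test (two-sided) cannot go below p = 0.1, which all 8 pairs reached, or 0.18 after adjustment over the 14 pairs, so none passed 0.05. The widest change was in the delta receptors, where *ptprda* took 59.7%, 68.9% and 60.3% in mutants and 42.3%, 52.1% and 46.9% in wildtypes, although neither gene passed the test across genes. Those shares rest on 41 to 91 reads per gene in mutant libraries and 57 to 79.1 in wildtype libraries.

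*ptprua* took 71.8%, 73.3% and 67.5% of its pair in mutants and 60.9%, 62.8% and 64.0% in wildtypes. Here mutant library D, which overlapped wildtype in CPM, stayed above it. The pair was *ptprua* with *ptprub* alone, and the reads of *PTPRU*, which leads to the same current gene as *ptprub*, were not added. With those reads the shares of *ptprua* would be lower in both genotypes. *ptprea* took 12.9%, 16.3% and 22.4% in mutants and 10.6%, 11.1% and 12.2% in wildtypes, highest in mutant library D. *ptprz1a* took 7.47%, 5.62% and 6.29% in mutants and 3.05%, 3.18% and 3.64% in wildtypes. The first gene gave way in 2 pairs: *ptprfa* took 13.0%, 14.2% and 15.0% in mutants and 16.4%, 16.3% and 16.8% in wildtypes, and *ptpn23a* took 79.8% to 80.3% in mutants and 82.4% to 83.5% in wildtypes. The shares of *ptpn11a*, at 93.3% to 93.8% in mutants and 93.1% to 93.8% in wildtypes, overlapped.

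**Figure D5:**
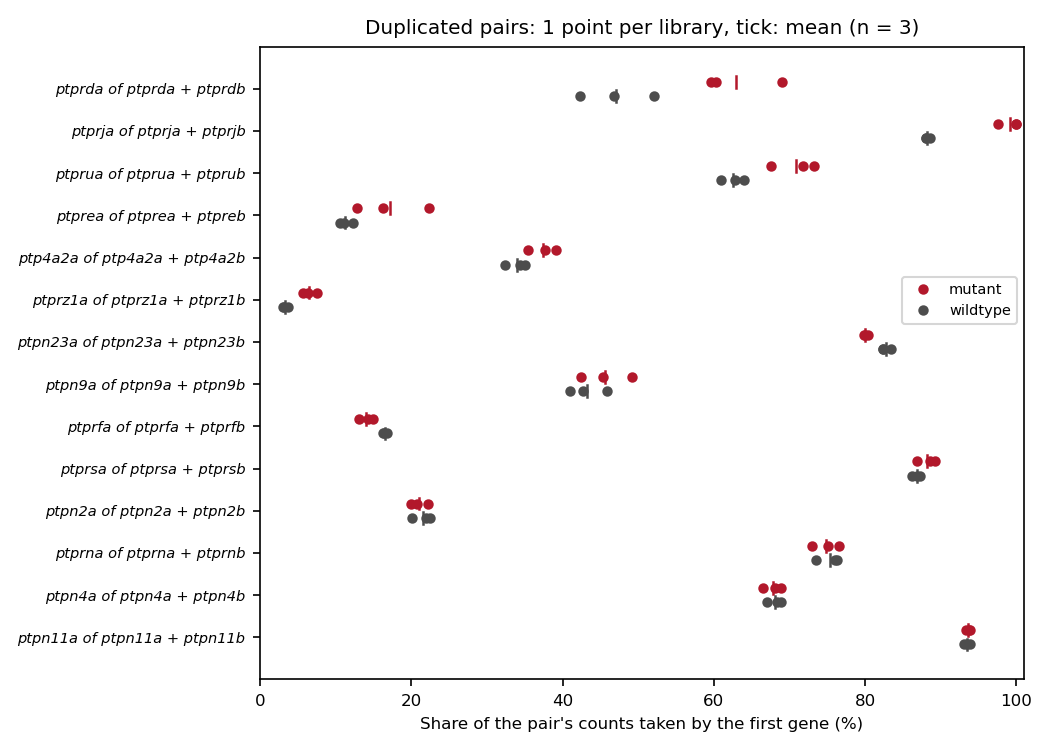
Share of a duplicated pair's counts taken by its first gene (horizontal axis, %), 1 point per library and a tick at the mean (n = 3), with mutant above wildtype for each of 14 pairs sorted by the size of the difference. The genotypes do not overlap in 8 pairs, with the widest gap for *ptprda* (59.7% to 68.9% in mutants, 42.3% to 52.1% in wildtypes). The 8 include the pair with *ptprjb*, a gene too low to test.

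The 6 genes that were too low to test are all receptor-type. *ptprjb*, a duplicate of the gene for the adhesion-linked phosphatase DEP-1, had 0, 0 and 1 reads in mutant libraries and 6, 4 and 8 reads in wildtype libraries. That is 1 read against 18, a ratio of 0.0526 with a 95% interval from 0.00126 to 0.333 that covers counting error only. *ptprq*, known in vertebrates from the hair bundle of the inner ear, had 1, 2 and 1 reads in mutants and 11, 3 and 12 reads in wildtypes. Both lay below the wildtype range. Both passed only when no filter on low counts was applied or, for *ptprq*, when wildtype replicate B or a mutant library was left out. In the fits without 1 library, only its wildtype libraries brought *ptprq* past the filter, and these are the group where it was higher. None of 4 hair cell markers tested passed, where 34.5% of all genes did. *PTPRT* had 4.2, 0 and 0 reads in mutants and 7.38, 5.45 and 9.81 reads in wildtypes, while the entry *ptprt* overlapped. *ptprh* had 5, 7 and 8 reads in mutants and 2, 3 and 3 reads in wildtypes.

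*ptprc* encodes CD45, a receptor carried by leukocytes, and had 2, 4 and 16 reads in mutant libraries and 3, 3 and 9 reads in wildtype libraries. It overlapped, as did *ptpn6*. Of 7 other leukocyte markers tested, *lcp1* (1.49), *irf8* (1.32) and *spi1b* (1.00) rose, where 17.4% of all genes did. The other 4 did not pass, among them *mpx* (0.09, adjusted p = 0.74) and *cxcr4b* (0.11, adjusted p = 0.18). The summed level of 9 markers was 46.1 to 55.4 CPM in mutants and 32.9 to 33.2 CPM in wildtypes, and 24.3 to 32.8 against 11.7 to 13.7 CPM without *cxcr4b*, the most abundant and not specific to leukocytes. None was at 0 in any library. The part of leukocytes in the values of *ptpn6*, *ptpn22* and *ptprc* was not tested.

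Phosphatases of the same superfamily with other names were also looked up. Of 35 tested (myotubularin, Eya, Slingshot, Cdc25 and related genes), 10 fell and 2 rose, where 17.1% of all genes fell and 17.4% rose. The list median was near 0, at -0.05 on the log2 scale. The largest fall was that of *ssh1b* (-1.02), a cofilin phosphatase, followed by the myotubularin-related *mtmr11* (-0.70). *eya1* (-0.37) and *acp1* (-0.36) also fell, and *mtm1* (0.29) and *mtmr1b* (0.40) rose.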

How the data were processed

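RNA-seq was made from poly(A) RNA with a strand-specific kit. Per the paper's methods, the authors checked the reads with FastQC, aligned them to the DanRer7 transcriptome with RSEM (1.2.28 per the labels, which also list GRCz10) and removed ribosomal RNA. The authors deposited RSEM's expected counts for each gene, without normalization and often with decimals. Columns of the authors' own comparison (means, fold changes and p-values, also in a separate DESeq2 table) were not used. The columns carry letters and the sample labels carry numbers, so a column was assigned to its genotype only, and libraries are called mutant replicates A, C and D and wildtype replicates A, B and C. The table holds 0 other columns of libraries.

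Expected counts were rounded, filtered with filterByExpr and scaled by TMM. Genotypes were compared with edgeR 4.0.16 (estimateDisp, glmQLFit, glmQLFTest) in R 4.3.3, with Benjamini-Hochberg adjustment over 20021 genes. Log2 fold changes are mutant over wildtype. The SE is the size of the log2 fold change divided by the square root of F, and 95% intervals use the t quantile. Library totals of 36310355 to 45161306 limit the precision of genes with few reads. Libraries within a genotype were not copies of each other (chi-square per degree of freedom 3.62 to 15.4, and 25.4 to 54.0 between genotypes). They were counted as replicates because the labels number them so, and whether their spread is biological or technical was not tested.

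The genes and lists were chosen with earlier results of these data known. Library values were given for the 8 largest rises and 8 largest falls at an adjusted p under 0.05, for *ptpn5*, *ptprr*, *ptpn6* and *ptpn11*, and for the duplicates of any of these. The gene *ptpn7* was also on the list but matched no name in the deposited counts. All other genes named, among them the remaining genes past the threshold and those too low to test, were named after their values were seen. Classes, list genes and matching through GRCz12tu names used no coordinates, and the matching ignored case. Some genes of the list of other superfamily phosphatases are not reported here and were left out of its counts. Protein sequences were not analysed here.

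Alternatives were DESeq2 size factors, upper-quartile scaling, DESeq2 1.42.0's Wald test, limma 3.58.1 (voom), no filter, a CPM filter (over 1 in 3 or more libraries), unrounded counts, an adjusted p under 0.01 and leaving out each library. The fit was also run on simulated counts, with planted changes larger than any called among these genes. That run does not bear on changes of the size reported here.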

Additional observations from a re-analysis of the deposited data

How the results depend on the processing

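The count of genes at an adjusted p under 0.05 stayed within 1.5 times of 23 under each alternative, at 20 with DESeq2's Wald test, 16 at an adjusted p under 0.01, 22 to 24 under the other scalings, filters and tests, and 17 to 28 when 1 library was left out. Without mutant replicate D it was 28, with *PTP4A3*, *ptpn3*, *ptpn9b*, *ptpn23a*, *ptprdb* and *ptprq* added and *ptpn11a* lost. The count with a fold over 2 was 1, but 0 with DESeq2's Wald test, 0 with the filter on CPM, 0 at an adjusted p under 0.01, 3 with no filter (*ptpn18*, *ptprjb*, *ptprq*) and 0 to 2 when 1 library was left out. In the fits without 1 library, *ptprq* entered the test only through its wildtype libraries, where it was higher. The median log2 fold change ranged from -0.0760 (without wildtype replicate B) to 0.0123 (without wildtype replicate C), so its sign depends on single libraries. Among the 25 named genes with a value, 291 of the recomputed values kept direction and side of the threshold, 23 no longer passed and 9 changed sign. The sign changes were all in genes near 0: *ptpn5* was 0.0047 and *ptprea* was -0.0011 with limma-voom, and leaving out 1 library gave -0.17 to 0.13 for *ptpn5*, -0.11 to 0.16 for *ptprea* and -0.16 to 0.0128 for *ptprfa*. The cause of these changes was not tested. No paired analysis was possible because the columns carry letters and only the sample labels carry replicate numbers. Depth limits the genes with few reads, among them *ptpn5*, *ptpn6*, *ptpn18* and the 6 untested genes.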
